A study of Arabidopsis thaliana with 3 samples.

Results

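The genes described here are 37 nuclear loci of Arabidopsis thaliana that build the light-harvesting antenna, make chlorophyll or encode the GLK transcription factors. They were given as a list of loci and comprise 6 LHCA genes of photosystem I, 14 LHCB genes of photosystem II, 15 chlorophyll synthesis genes and the regulators GLK1 and GLK2. All 37 were found among the 27444 nuclear protein-coding genes of the RefSeq table. A gene counted as bound by a factor when at least 1 summit, the point of highest signal in a ChIP-seq peak, lay inside it or within 1000 bp of either end.

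The series maps chromatin binding by ChIP-seq, in which crosslinked chromatin is precipitated with an antibody and the recovered DNA is sequenced. Whole Col-0 seedlings, kept in darkness for 4 days in hydroponic culture and then given 10 uM dexamethasone for 6 h, expressed unfused GFP, GFP-tagged DIG1 or GFP-tagged DIG2, and an anti-GFP antibody was used for all 3 samples. All groups thus share the accession, the darkness and the dexamethasone, and the promoter and inducible system that drive the fusions are not given in the labels. DIG1 and DIG2 are called DTAF1 and DTAF2 in the deposited lists. Sample titles pair them with AT3G45810 and AT5G50360. The RefSeq table names AT3G45810 as respiratory burst oxidase homolog J and gives no descriptive name to AT5G50360, and the identity of the fusions was not checked here. Each factor has 1 peak list, with 13459 summits for DIG1 and 16562 for DIG2, and a list of the GFP sample was not analysed here. Without replicate lists the differences below have no replicate check. Read depth is unknown, and the summits' fold enrichment and −log10 p are the authors' own values, used to describe and rank summits within their own list.

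Light-harvesting proteins bind chlorophyll and carotenoids and pass absorbed energy to the reaction centres, the LHCA proteins at photosystem I and the LHCB proteins at photosystem II. Chlorophyll is made in the plastid from glutamyl-tRNA by way of the tetrapyrrole pathway, whose magnesium branch leads to chlorophyll. The last reduction of protochlorophyllide needs light in flowering plants, so seedlings kept in darkness stay pale and hold protochlorophyllide. GLK1 and GLK2 are related transcription factors known to activate antenna and chlorophyll synthesis genes during chloroplast development.

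DIG1 and DIG2 summits lay at most of these genes. DIG1 bound 25 of 37 (67.6%), where 37.7% of all nuclear protein-coding genes were bound. DIG2 also bound 25 of 37 (67.6%), against 42.3% of all genes. Both factors bound 23 (62.2%), against 36.3% of all genes, and 10 had a summit of neither. Of the 25 genes bound by DIG1, 92.0% were also bound by DIG2, where this held for 96.3% of the 10342 DIG1-bound genes of the genome. Of the 25 genes bound by DIG2, 92.0% were also bound by DIG1, against 85.7% of the 11613 DIG2-bound genes. LHCB2.1 and LHCB2.2 were bound by DIG1 alone, and HEMA2 and CHLM by DIG2 alone. The list was compiled with earlier results of these data known, so these shares are descriptions and were not tested.

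**Figure D1:**
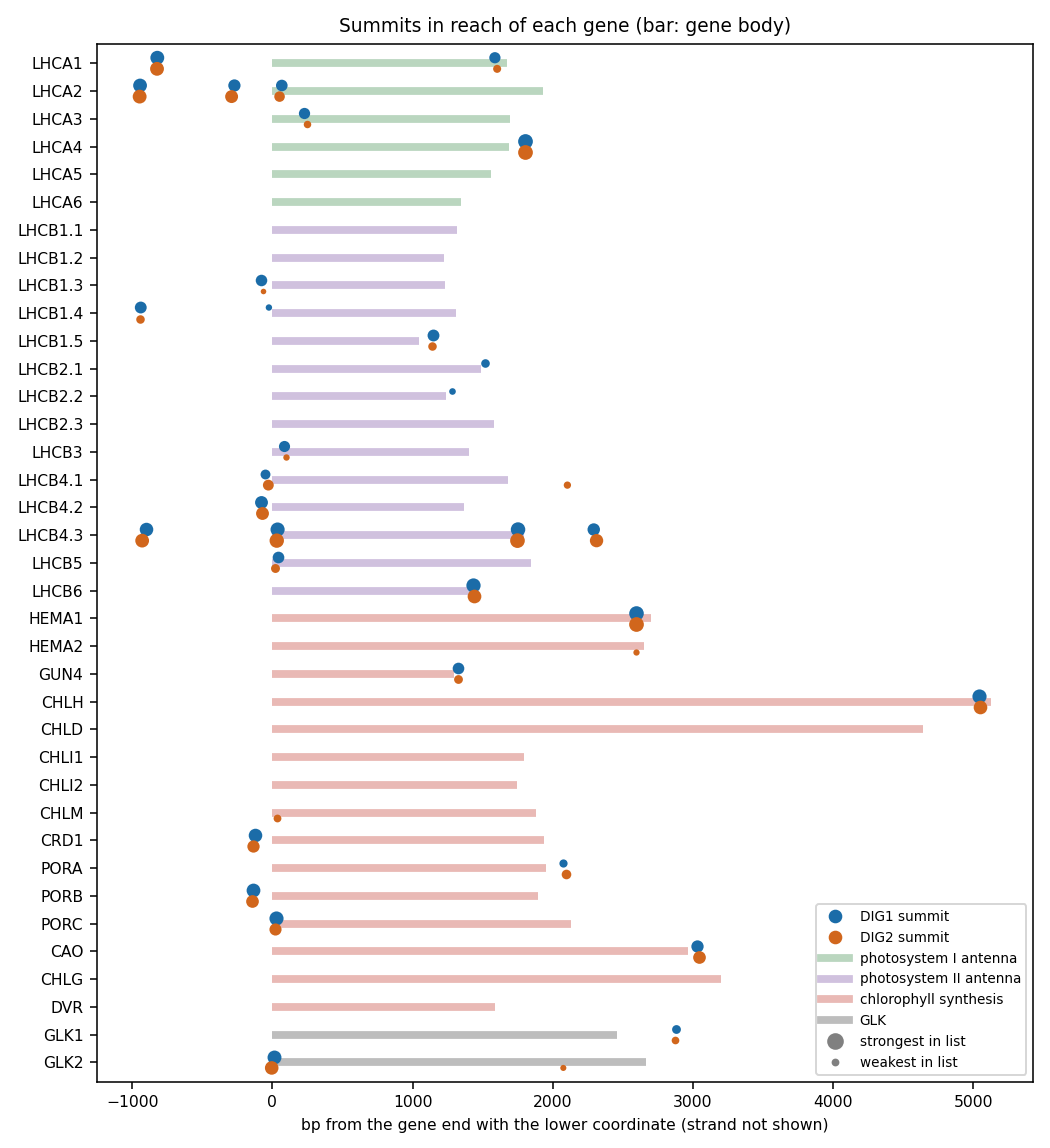
Positions of all DIG1 (blue) and DIG2 (orange) summits within 1000 bp of each of the 37 genes, in bp from the gene end with the lower coordinate, with the gene body as a bar and dot size showing rank within the factor's own list. Dots cluster at gene ends, most DIG1 and DIG2 dots lie at nearly the same position along the gene, and 10 genes carry none.

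Among the photosystem I antenna genes, 4 of 6 were bound by both factors (66.7%, against 36.3% of all genes). Those were the genes of the main antenna belt, LHCA1 to LHCA4. LHCA4 (AT3G47470) had the strongest summits of all 37 genes in both lists, rank 136 of 13459 for DIG1 (fold 11.7) and rank 178 of 16562 for DIG2 (fold 15.1), at 115 and 110 bp outside the gene. Its peaks spanned chromosome 3, 17494607 to 17495438 for DIG1 and 17494779 to 17495470 for DIG2 (TAIR10, as deposited). These are ranks near the top of each list.

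LHCA2 (AT3G61470) carried 3 summits of each factor in reach, inside long peaks of 2494 bp for DIG1 and 3640 bp for DIG2. Its strongest ranked 2104 for DIG1 (fold 5.1) and 2361 for DIG2 (fold 6.93), 944 and 947 bp outside, near the limit of the rule. A weaker summit of each factor lay 67 and 51 bp inside a gene end. LHCA1 (AT3G54890) had its strongest summits at rank 1929 and 2473 (folds 5.85 and 7.78), 821 and 823 bp outside and nearer to the neighbouring gene AT3G54880. The summits close to LHCA1 itself, 85 and 69 bp inside an end, ranked only 6591 and 13567.

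LHCA3 (AT1G61520) had 1 summit of each factor, 225 and 246 bp inside the gene, at rank 6586 (fold 3.42) and 14277 (fold 2.5). LHCA5 (AT1G45474) and LHCA6 (AT1G19150), whose low-abundance products help to hold the chloroplast NDH complex to photosystem I, were far from any summit. The closest lay 9738 bp (DIG1) and 8788 bp (DIG2) from LHCA5 and 6400 and 5716 bp from LHCA6.

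Among the photosystem II antenna genes, DIG1 bound 11 of 14 (78.6%, against 37.7% of all genes) and DIG2 bound 9 of 14 (64.3%, against 42.3%). The genes of the minor, monomeric antenna proteins (LHCB4, LHCB5 and LHCB6) were all bound by both factors, as were 36.3% of all genes. LHCB4.3 (AT2G40100), a diverged LHCB4 copy, was bound most densely, with 4 summits of each factor in reach. The strongest lay 44 bp (DIG1) and 48 bp (DIG2) inside one end, at rank 675 (fold 7.69) and 383 (fold 12.5). Another lay 37 and 31 bp inside the opposite end, at rank 1388 and 1100, so both gene ends were occupied by both factors. The remaining summits lay outside LHCB4.3 and nearer to other genes. Those 898 bp (DIG1) and 929 bp (DIG2) outside were nearer to AT2G40095, and those 496 and 516 bp outside to AT2G40110.

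LHCB6 (AT1G15820) followed, with 1 summit of each factor 12 and 20 bp outside, at rank 1127 (fold 6.18) and 2748 (fold 6.65). LHCB4.2 (AT3G08940) had summits 81 and 73 bp outside, at rank 3829 and 4698. LHCB4.1 (AT5G01530) had them 51 and 29 bp outside, at rank 8658 and 8883. A further DIG2 summit lay 422 bp outside its opposite end, at rank 14547 (fold 2.37), nearer to LECRKA4.1. LHCB5 (AT4G10340) was intermediate for DIG1 (rank 5929, fold 3.41) and in the weaker part of the DIG2 list (rank 12217, fold 2.65), 43 and 22 bp inside an end.

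The genes of the major trimeric antenna, LHCB1, LHCB2 and LHCB3, had summits at rank 5581 or lower down the DIG1 list and 12813 or lower down the DIG2 list, or none. LHCB3 (AT5G54270) had summits 85 and 97 bp inside an end, at rank 6767 (DIG1, fold 3.17) and 15594 (DIG2, fold 2.17). LHCB1.5 (AT2G34420) and its neighbour LHCB1.4 (AT2G34430) were reached by the same summits, which lay 100 and 94 bp outside LHCB1.5 and 939 and 945 bp outside LHCB1.4, at rank 5581 (fold 4.02) and 12813 (fold 2.93). LHCB1.4 had a further DIG1 summit 25 bp outside, at rank 12686 (fold 2.2), with no DIG2 counterpart.

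Of the tandem genes LHCB1.1 (AT1G29920), LHCB1.2 (AT1G29910) and LHCB1.3 (AT1G29930), LHCB1.3 alone had a summit. It lay 79 bp (DIG1) and 64 bp (DIG2) outside the gene, in peaks on chromosome 1, 10477648 to 10477988 and 10477697 to 10477935. It ranked 6143 for DIG1 (fold 3.54), near the middle of that list, and 16501 of 16562 for DIG2 (fold 2.15), almost the last. The same summits were the closest to LHCB1.1, at 1837 and 1852 bp, and to LHCB1.2, at 4304 and 4319 bp.

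LHCB2.1 (AT2G05100) and LHCB2.2 (AT2G05070) each had a single weak DIG1 summit, 28 and 43 bp outside, at rank 10326 (fold 2.67) and 12471 (fold 2.45). The nearest DIG2 summit was 37659 bp from LHCB2.1 and 61667 bp from LHCB2.2. LHCB2.3 (AT3G27690) had its closest summits 18725 bp (DIG1) and 18699 bp (DIG2) away. The LHCB1 genes, and LHCB2.1 and LHCB2.2, are very similar copies. The labels do not say how reads matching several copies were placed, so a missing or weak summit at these genes is uncertain.

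Of the 15 chlorophyll synthesis genes, DIG1 bound 8 (53.3%, against 37.7% of all genes). DIG2 bound those 8 and 2 more (66.7%, against 42.3%). At the entry to the pathway, HEMA1 (AT1G58290), the main gene for glutamyl-tRNA reductase, held the strongest summits of this group, 110 bp (DIG1) and 106 bp (DIG2) inside an end. They ranked 460 (fold 8.62) and 218 (fold 13.9), in peaks on chromosome 1 at 21626023 to 21626624 and 21625936 to 21627134. Its homologue HEMA2 (AT1G09940) had a DIG2 summit alone, 54 bp inside an end and close to the bottom of the list (rank 15758, fold 2.18). The closest DIG1 summit to HEMA2 was 2559 bp away.

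At magnesium chelatase, which commits protoporphyrin to chlorophyll, the genes of the subunits differed. CHLH (AT5G13630), for the large subunit, had summits 80 and 72 bp inside an end, at rank 1305 (fold 6.76) and 2914 (fold 7.25). CHLD (AT1G08520), CHLI1 (AT4G18480) and CHLI2 (AT5G45930), for the ATPase-type subunits, had none. The closest summits were 1740 (DIG1) and 1708 bp (DIG2) from CHLD, 10081 and 10061 bp from CHLI1, and 9431 and 1961 bp from CHLI2. GUN4 (AT3G59400), whose product binds porphyrins and stimulates the chelatase, had summits of both factors 28 bp outside, at rank 5975 (fold 3.66) and 12409 (fold 2.87), nearer to its neighbour GCN2.

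In the following steps, CHLM (AT4G25080), for the magnesium protoporphyrin methyltransferase, had a weak DIG2 summit 30 bp inside an end (rank 13882, fold 2.45), and its closest DIG1 summit was 1618 bp away. CRD1 (AT3G56940), for a subunit of the cyclase that closes the fifth ring, had summits 122 and 138 bp outside, at rank 2531 (fold 4.98) and 5967 (fold 4.6). DVR (AT5G18660), for divinyl reductase, had none, the closest being 2746 bp (DIG1) and 1749 bp (DIG2) away.

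All the POR genes, for the light-dependent protochlorophyllide oxidoreductases, were bound by both factors, as were 36.3% of all genes. PORC (AT1G03630) had summits 23 and 20 bp inside an end, at rank 1404 (fold 6.93) and 6306 (fold 4.93), also inside AT1G03620. PORB (AT4G27440) had them 139 and 147 bp outside, at rank 2103 (fold 5.36) and 5132 (fold 5.15), nearer to AT4G27435. PORA (AT5G54190), the form best known from dark-grown seedlings, had the weakest of the POR genes, 126 and 144 bp outside at rank 10817 (fold 2.23) and 11103 (fold 2.79).

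Of the genes for the last steps, CAO (AT1G44446), for the oxygenase that makes chlorophyll b, had summits 69 and 79 bp outside, at rank 4849 (fold 3.93) and 5089 (fold 5.7). CHLG (AT3G51820), for chlorophyll synthase, had its closest summits 9600 and 9623 bp away.

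Both GLK genes were bound by both factors, as were 36.3% of all genes, and GLK2 was bound more strongly. GLK2 (AT5G44190) had its strongest summits at the very end of the gene, 8 bp inside for DIG1 (rank 1835, fold 5.84) and 5 bp outside for DIG2 (rank 3079, fold 6.9). A further weak DIG2 summit lay 589 bp inside it (rank 15957). GLK1 (AT2G20570) had weak summits 425 and 418 bp outside, at rank 10086 (fold 2.37) and 14059 (fold 2.29). With a −log10 p of at least 30, GLK1 was bound by neither.

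The DIG1 shares of bound genes were 66.7% of photosystem I antenna genes, 78.6% of photosystem II antenna genes and 53.3% of chlorophyll synthesis genes. For DIG2 they were 66.7%, 64.3% and 66.7%. Over all genes the shares were 37.7% for DIG1 and 42.3% for DIG2. One gene makes up 16.7% of the photosystem I antenna group, 7.14% of the photosystem II antenna group and 6.67% of the chlorophyll synthesis group, and the groups were not tested against each other.

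In the DIG1 list the strongest summit of a bound photosystem I antenna gene had a median rank of 2016.5, or 15% from the top of the list, and that of a chlorophyll synthesis gene 2317.0 (17.2%). Photosystem II antenna genes stood at 5929.0 (44.1%), close to the 43.5% of all bound genes. In the DIG2 list the photosystem I antenna stood at 14.6%, chlorophyll synthesis at 37.1% and the photosystem II antenna at 73.8%, against 43.8% for all bound genes. LHCB1.4 and LHCB1.5 enter these photosystem II medians with the same summits. The photosystem I medians rest on the summits of LHCA1 and LHCA2 that lie 821 to 947 bp outside those genes. With a reach of 500 bp, an alternative added after the values were seen, the photosystem I antenna stood at 42.6% in the DIG1 list and 54.9% in the DIG2 list, against 46.4% and 47.0% for all bound genes. The photosystem II antenna then stood at 45.6% and 63.7%, and chlorophyll synthesis stayed at 17.2% and 37.1%.

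Among the 1000 strongest peaks of a list, DIG1 reached 3 of the 37 genes (4.2% of all genes were reached) and DIG2 reached 4 (3.98% of all genes). LHCA4, LHCB4.3 and HEMA1 were reached by both. LHCA2 was reached by DIG2, through the long peak whose strongest summit lies beyond the reach of the gene.

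**Figure D2:**
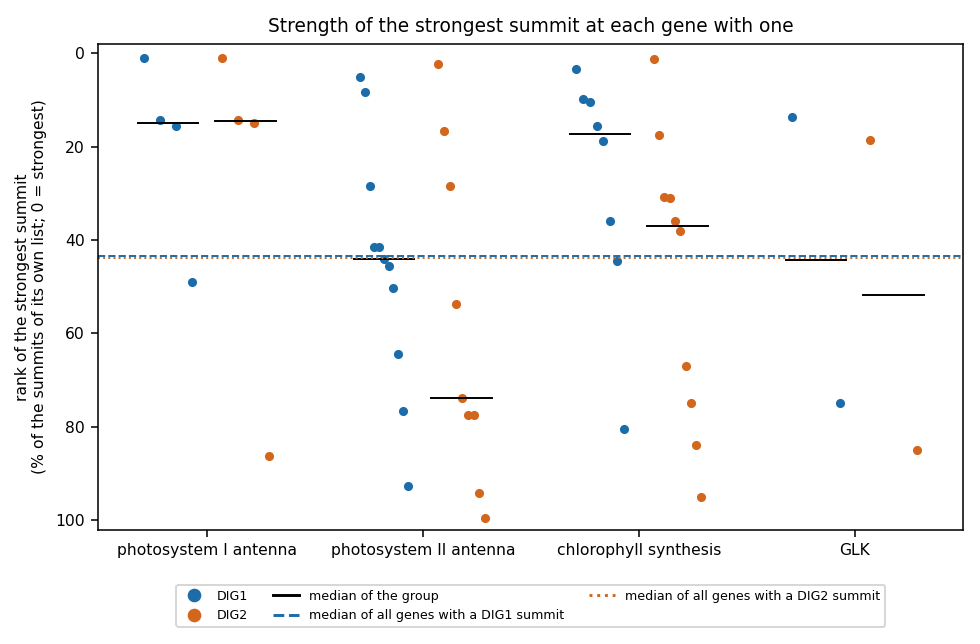
Rank of the strongest summit at each bound gene, as a percentage of the summits of its own list (0 is the strongest), for DIG1 (blue) and DIG2 (orange), with the median of each group as a black bar and the medians of all bound genes as dashed and dotted lines. The photosystem I antenna medians are 15% and 14.6%, or 42.6% and 54.9% when summits more than 500 bp outside LHCA1 and LHCA2 are not counted, and the photosystem II antenna medians are 44.1% and 73.8%.

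The summits at these genes sat close to gene ends. For each factor, the strongest summit lay within 200 bp of an end, on either side, at 20 of 25 bound genes (80.0%). Over all bound genes that share was 45.4% for DIG1 and 44.3% for DIG2. The median distance to the end was 81.0 bp for DIG1 and 79.0 bp for DIG2, against 240.0 and 254.0 bp over all bound genes. All bound chlorophyll synthesis genes, 8 for DIG1 and 10 for DIG2, were within 200 bp. The exceptions were LHCA1, LHCA2 and LHCA3 of photosystem I, LHCB1.4 and GLK1. The gene table gives no strand, so the start and the stop of a gene were not told apart.

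The strongest summit was nearer to another gene than to the member at LHCA1, LHCB1.4, GUN4, CRD1 and PORB, where the nearer genes were AT3G54880, LHCB1.5, GCN2, AT3G56930 and AT4G27435. At PORC the summits lay inside both PORC and the overlapping gene AT1G03620. When a summit counted only for its nearest gene, DIG1 reached 5 of 15 chlorophyll synthesis genes (33.3%, against 28.8% of all genes). DIG2 reached 7 (46.7%, against 32.9%), and 5 were reached by both (33.3%, against 27.5%). GUN4, CRD1 and PORB were the 3 genes lost.

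DIG1 and DIG2 summits lay close together at these genes, as they did across the genome. At all 23 genes bound by both, a DIG1 and a DIG2 summit were each other's nearest within 100 bp, and the 2 summits of such a pair were a median of 8.0 bp and at most 22 bp apart. Such a pair was present at 9851 (98.9%) of all 9958 genes bound by both, with a median distance of 10.0 bp. The antibody was the same for both factors, and its part in this agreement was not tested.

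The summits paired in position differed in how strongly they stood in each list. All 12749 such pairs in the genome were put in order once by the DIG1 −log10 p and once by the DIG2 −log10 p, so that both orders hold the same pairs, and each gene was described by its pair with the smallest sum of places. This comparison was chosen after the values were seen and was not tested. Of the 23 genes, 21 (91.3%) stood higher in the DIG1 order than in the DIG2 order, as did 53.5% of all genes with a pair. The exceptions were the strongly bound genes HEMA1 (place 457 for DIG1 and 218 for DIG2) and LHCB4.3 (671 and 382).

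The widest gaps were at antenna genes with mid-ranking DIG1 summits and at GUN4. LHCB1.3 stood at place 6059 in the DIG1 order and 12741 in the DIG2 order, a gap of 6682 places. LHCB1.4 and LHCB1.5, which share a pair, had a gap of 6112, LHCB3 of 5897, LHCA3 of 5740 and LHCB5 of 5445. Outside the antenna, GUN4 had a gap of 5503 (places 5899 and 11402), PORC of 4836 (1393 and 6229) and CRD1 of 3385 (2509 and 5894).

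A gap of at least 5000 places in this direction was present at 6 of the 13 antenna genes with a pair and at 327 of all 9851 genes (3.32%). Genes that share a pair, such as LHCB1.4 and LHCB1.5, are each counted in these numbers. In the opposite direction such a gap was present at 11 of the 9851 genes and at none of the 23. LHCA4, LHCA2, LHCB4.1, CAO and PORA differed little, by 42, 258, 200, 240 and 53 places. Genes whose pair lay within 200 bp of a gene end stood higher in the DIG1 order slightly more often than others, at 58.4% of 4423 genes against 49.5% of 5428, and 16 of the 18 genes described here with such a pair did so, as did all 5 whose pair lay farther away. The orders hold no summit that is missing from either list, 710 of DIG1 and 3813 of DIG2, and the part that depth or the authors' threshold plays in the gaps was not tested.

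**Figure D3:**
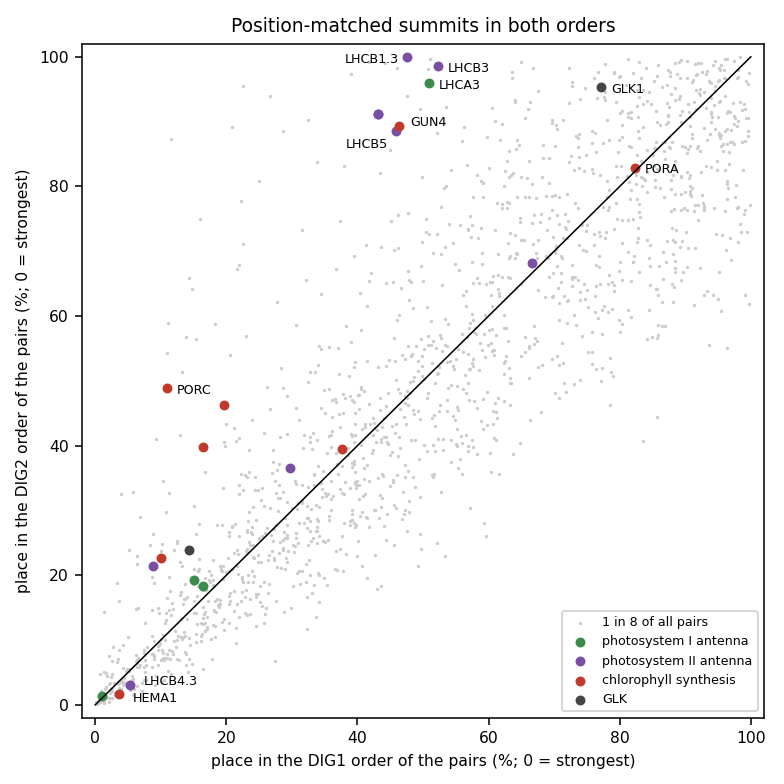
Place of each position-matched summit pair in the DIG1 order (horizontal) and the DIG2 order (vertical), as a percentage of 12749 pairs (0 is the strongest), for the genes described here (coloured by group) and for 1 in 8 of all pairs (grey), with the line of equal place. All but HEMA1 and LHCB4.3 lie above the line, and LHCB1.3, LHCB3, LHCA3, LHCB5 and GUN4 stand near the middle of the DIG1 order and near the bottom of the DIG2 order.

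Neighbouring pathways were described with 8 lists of 71 genes. Over all genes the shares bound were 37.7% for DIG1, 42.3% for DIG2 and 36.3% for both. Every one of the 12 genes for nuclear-encoded core subunits of photosystem I was bound by DIG1, and 11 by DIG2, all but PSAH2. The strongest for DIG1 were PSAK (ranks 567 and 2088 for DIG1 and DIG2), PSAF (852 and 2682) and PSAO (1231 and 1545). All 11 genes for core, oxygen-evolving and PSBS subunits of photosystem II were bound by both, led for DIG1 by PSBQA (435 and 1362), PSBO1 (858 and 1067) and PSBO2 (928 and 1646). The genes for the Rubisco small subunit and Rubisco activase, 5 in all, were bound by both as well, with RCA (1196 and 5300) and RBCS3B (2695 and 7290) the strongest for DIG1. RBCS1B and RBCS2B shared their summits. RBCS copies are very similar and carry the same uncertainty as the LHCB1 genes.

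In the common early steps of tetrapyrrole synthesis 7 of 13 genes (53.8%, against 36.3% of all genes) were bound by both factors. They were led by HEME1 (ranks 1789 and 1669), HEMF2 (1871 and 1635) and HEMG1 (7903 and 5281). In the heme and bilin branch 1 of 7 (14.3%) was bound, HO2 (7430 and 13011), a heme oxygenase gene, and neither ferrochelatase gene FC1 or FC2 had a summit in reach. Of 5 further genes acting on chlorophyll synthesis, GNC (1602 and 1006), for a GATA factor, was bound by both, and FLU, GBP, GGR and CGA1 by neither. Of 10 chlorophyll breakdown genes DIG1 bound 4 (40.0%, against 37.7% of all genes) and DIG2 bound 6 (60.0%, against 42.3%). The DIG1 share was thus close to that of all genes. ACD2 (2701 and 3797) led, NYE1 and PAO were bound by DIG2 alone, and NYE2, NOL, HCAR and CLH2 by neither. Of 8 genes for LHC-like proteins DIG1 bound 5 and DIG2 bound 4, led by LIL3.2 (806 and 2669), while ELIP2, SEP2 and LIL3.1 had none.

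Several of these counts depended on the reach. With 500 bp, or with the nearest gene alone, the early steps fell from 7 to 4 genes bound by both (30.8%, against 29.6% and 27.5% of all genes). LHC-like genes fell to 2 for DIG1 (25.0%) and 1 for DIG2 (12.5%) under either setting, below the shares of all genes. Those shares were 31.0% and 35.1% with 500 bp, and 28.8% and 32.9% with the nearest gene alone. Rubisco genes fell to 3 for each factor (60.0%), above those shares. GNC was lost with 500 bp and HO2 with the nearest gene alone. With 2000 bp the heme and bilin branch rose to 3 of 7 genes for each factor (42.9%). The shares of all genes were then 46.6% for DIG1 and 51.5% for DIG2. With a −log10 p of at least 30, photosystem II core genes bound by DIG2 fell from 11 to 7 (63.6%, against 35.2% of all genes). Photosystem I core genes bound by DIG2 then fell from 11 to 8 (66.7%), and Rubisco genes from 5 to 3 (60.0%).

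The photosystem core and Rubisco lists showed gaps between the DIG1 and DIG2 orders in the same direction. Of the genes with a pair, 10 of 11 in each of the photosystem I and II core lists stood higher in the DIG1 order. So did 5 of 5 in the Rubisco list, where RBCS1B and RBCS2B share a pair and are each counted. Over all genes with a pair the share was 53.5%. Gaps of at least 5000 places were present at PSAG (6346), PSAE1 (6017) and PSBW (6849), and at 3.32% of all genes with a pair. Smaller gaps put 3 of 4 LHC-like genes, 3 of 7 in early tetrapyrrole synthesis, 2 of 4 in chlorophyll breakdown and HO2 (by 4413 places) higher in the DIG1 order. GNC stood higher in the DIG2 order.

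**Figure D4:**
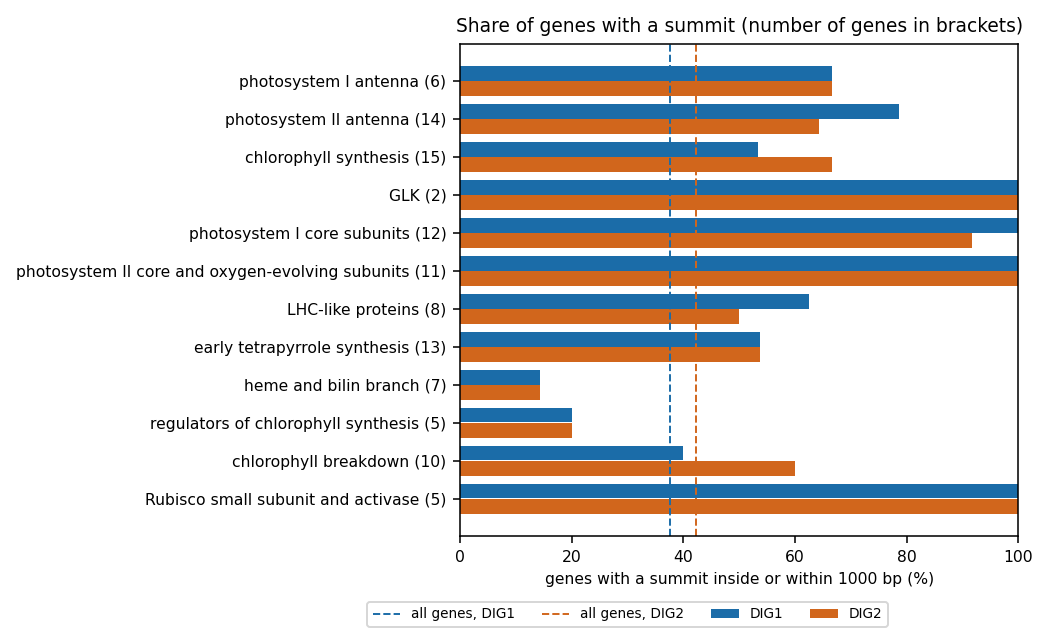
Percentage of genes with a DIG1 (blue) or DIG2 (orange) summit inside or within 1000 bp, for the 4 groups described here and for 8 neighbouring pathway lists, with the number of genes in brackets and the shares of all nuclear protein-coding genes as dashed lines (37.7% and 42.3%). The photosystem core and Rubisco lists reach 100.0% for DIG1. The heme and bilin branch is at 14.3% for both factors with this reach, and at 42.9% with 2000 bp.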

How the data were processed

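Per the submitters' processing notes, Bowtie 0.12.7, the TAIR10 build and MACS2 were used. The labels give neither the MACS2 version nor the control of each list nor any pooling of replicates. In the narrowPeak layout, per summit, the authors deposited a fold enrichment (a ratio), a −log10 p, a −log10 q and a score. The last pair were not used, and no −log10 p lay under 16.

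Genes came from a RefSeq table of assembly TAIR10.1 with 38312 entries, without strand, exons or sequence, and none of its coordinates is printed. As a check, summits were shifted by up to 2000 bp in 50 bp steps. The fewest lay inside genes at -50 to 50 bp, for each of 5 chromosomes in both lists. Summits were ranked by −log10 p within their list, with 1 as the strongest. LCAA, 1 of 72 pathway loci, was dropped because its name is absent from the table. The rules were tested on simulated data against a direct search (Python 3.11.15, pandas 2.3.3). All members are named. Per pathway list, up to 3 leading genes are named, and genes lacking a summit where they are 4 or fewer. NYE1, PAO, FC1, FC2, PSAG, PSAE1 and PSBW were chosen after their values were seen. Members and lists were chosen with earlier results of these data known. No test was run, since each factor has 1 list. The planned promoter motifs and comparison of near-identical copies were not run, as no sequence was used here.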

Additional observations from a re-analysis of the deposited data

How the results depend on the processing

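With 1 list per factor, no replicate could be left out. No paired analysis was possible because each group has 1 sample. Windows of 500 and 2000 bp, gene ends only, overlap of the whole peak and the strongest summit alone were tried. So were a −log10 p of at least 30, lists of 11343 peaks each and the nearest gene alone. Across these settings DIG1 bound 21 to 28 of the 37 genes (56.8% to 75.7%), where 28.3% to 46.6% of all genes were bound. DIG2 bound 19 to 29 (51.4% to 78.4%, against 32.9% to 51.5%). Both bound 18 to 26 (48.6% to 70.3%, against 27.5% to 45.2%). Restriction to the 1000 strongest peaks reduced these counts to 3, 4 and 3, by construction. The shares of all genes were then 4.2%, 3.98% and 2.97%. With that restriction, photosystem I antenna genes fell to 1 for DIG1, 2 for DIG2 and 1 for both, photosystem II antenna and chlorophyll synthesis genes to 1 each for DIG1, for DIG2 and for both, and GLK genes to 0 in all 3 counts. With the nearest gene alone, chlorophyll synthesis genes bound by DIG1 and by both fell from 8 to 5 (33.3%). The shares of all genes were then 28.8% and 27.5%. Those bound by DIG2 fell from 10 to 7 (46.7%, against 32.9% of all genes). With a −log10 p of at least 30, GLK genes fell from 2 to 1 for DIG1, DIG2 and both. The shares of all genes were then 28.3%, 35.2% and 27.5%. With lists of equal length, GLK genes fell from 2 to 1 for DIG2 and both, against 36.9% and 34.2% of all genes. In each case GLK1 was lost. Pairing within 50 or 200 bp left 23 genes with a pair and 21 higher in the DIG1 order. Ordering by the authors' fold, chosen after seeing the data, left 18 of 23 higher in the DIG1 order, among them 11 of the 13 antenna genes. The share of all genes was not taken for the fold order, so these counts have no genome-wide value beside them. With a reach of 500 bp, also chosen after seeing the data, the median place of photosystem I antenna summits moved from 15% to 42.6% of the DIG1 list and from 14.6% to 54.9% of the DIG2 list, and those of the photosystem II antenna and chlorophyll synthesis were 45.6% and 17.2% for DIG1 and 63.7% and 37.1% for DIG2. Unknown depth limits every comparison of strength between the lists.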
